A study of Mus musculus with 23 samples.

Results

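Of the 32793 genes in the deposited table, 10 are described here: Adgrg2, Cadm3, Cnrip1, Tril, Chst10, Hs3st1, Bnc1, Eid2, Lmbr1 and Sncaip. They were chosen from the measured values, as genes near 0 counts in the libraries labelled KO and counted in every control library on every day, so the gap between the genotypes is given below as a description without a test. Poly(A) RNA was sequenced from C2C12 cells in 23 libraries; C2C12 is a line of mouse myoblasts, muscle precursors that divide in serum-rich medium and form muscle fibres once serum is lowered. The purpose stated for the series is to compare control cells with Runx1KO cells, in which the transcription factor Runx1 was targeted, in growth medium and during differentiation. On day 0, in growth medium (20% fetal bovine serum), control cells gave 2 libraries and Runx1KO cells gave 3. In differentiation medium with 2% horse serum, control and Runx1KO cells gave 3 libraries each on days 1, 3 and 6, the days given in the sample titles (the series text gives 5 days for the last). How the knockout was made, and whether the Runx1KO cells are 1 clone or a pool, is not given in the sources used here. Nothing in the labels says that the libraries of a group came from separate cultures, so p-values measure only the spread between these samples, which may be technical.

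The 10 genes have no shared textbook pathway. Several are receptors or adhesion proteins of the cell surface, a pair are Golgi sulfotransferases that add sulfate to sugar chains, and others act in the nucleus or are best known from nerve cells. Runx1 is a DNA-binding protein that recognises the core sequence TGTGGT together with its partner Cbfb and can raise or lower transcription of nearby genes, and ETS-family proteins, which often bind beside it, recognise a GGAA core.

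Promoter sequences are shown for 5 genes because they carry the features counted further on: the Runx core in Cadm3, Cnrip1 and Lmbr1, and in Bnc1 and Eid2 the largest numbers of CpG in the window of 300 bases around the start. Each is the 250 bases before the start that the RefSeq promoter table uses for the gene, 5′ to 3′ on the gene's own strand, on GRCm38.p6 (the build whose UCSC name is mm10, which the submitters' processing notes list). In the first 3 sequences capitals mark TGTGGT or its reverse complement, and in the last 2 capitals mark CG. The Cadm3 sequence lies at chr1:173367696-173367945 on the minus strand, the Cnrip1 sequence at chr11:17051609-17051858 on the plus strand and the Lmbr1 sequence at chr5:29378391-29378640 on the minus strand. The Bnc1 sequence lies at chr7:81992300-81992549 on the minus strand and the Eid2 sequence at chr7:28267631-28267880 on the plus strand. The gene spans given below cover all RefSeq transcripts of a gene, so the start used here can lie inside the span, as it does for Cadm3 and Lmbr1, and motif positions are counted from the start used here.
Cadm3: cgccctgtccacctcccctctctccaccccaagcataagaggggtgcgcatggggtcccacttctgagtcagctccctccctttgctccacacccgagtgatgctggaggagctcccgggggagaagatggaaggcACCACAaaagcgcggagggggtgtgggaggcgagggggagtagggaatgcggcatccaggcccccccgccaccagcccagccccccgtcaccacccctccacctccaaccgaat
Cnrip1: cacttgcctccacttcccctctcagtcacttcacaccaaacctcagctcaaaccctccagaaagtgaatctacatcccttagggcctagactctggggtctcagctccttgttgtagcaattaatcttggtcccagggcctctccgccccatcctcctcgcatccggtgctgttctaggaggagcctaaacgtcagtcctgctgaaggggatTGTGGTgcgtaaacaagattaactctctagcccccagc
Lmbr1: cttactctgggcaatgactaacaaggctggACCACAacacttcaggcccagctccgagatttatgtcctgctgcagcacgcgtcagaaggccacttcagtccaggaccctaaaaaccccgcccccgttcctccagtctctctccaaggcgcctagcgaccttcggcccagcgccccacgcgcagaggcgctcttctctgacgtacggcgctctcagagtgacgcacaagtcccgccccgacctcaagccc
Bnc1: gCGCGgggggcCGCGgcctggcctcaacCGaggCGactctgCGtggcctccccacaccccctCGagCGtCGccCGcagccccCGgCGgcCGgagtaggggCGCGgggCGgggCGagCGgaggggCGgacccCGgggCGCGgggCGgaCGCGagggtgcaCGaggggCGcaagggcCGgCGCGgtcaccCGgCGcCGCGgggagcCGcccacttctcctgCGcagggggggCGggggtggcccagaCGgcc
Eid2: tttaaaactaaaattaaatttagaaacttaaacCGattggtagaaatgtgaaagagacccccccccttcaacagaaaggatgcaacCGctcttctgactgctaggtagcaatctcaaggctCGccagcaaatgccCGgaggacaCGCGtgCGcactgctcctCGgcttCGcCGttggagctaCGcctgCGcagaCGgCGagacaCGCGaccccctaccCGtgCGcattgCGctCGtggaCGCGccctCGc

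Each library held between 22197606 and 23684077 estimated counts. Levels are given as CPM, estimated counts scaled to a common library size with edgeR's TMM method, and between genes as TPM, the deposited abundance per transcript length. Runx1 itself, the check of the labels, did not have a lower level under the KO label: its mean was 84.0 CPM ± 0.0493 (SD, n = 2) in control and 119.8 ± 2.15 (n = 3) in labelled KO on day 0, and 152.9 ± 10.4 against 310.6 ± 11.8 (n = 3 each) on day 6. Since how the knockout was made is not given, the RNA level of the gene cannot decide for or against the label. The label therefore rests on the submitters' word, and each direction below holds for the libraries as labelled. Muscle markers fitted the labelled cell line: Myod1, the myoblast regulator, stood at 165 to 419 CPM in control and 133 to 538 CPM in labelled KO, and Des (desmin) at 985 to 1762 and 1539 to 2971 CPM. Cdh15 stood at 123 to 276 CPM in control and 202 to 385 in labelled KO, and Myf5 at 30.7 to 53.8 and 12.5 to 42.3. The genotypes differed in the highest level of 2 differentiation markers: Myog reached 173 CPM in control and 977 in labelled KO, and Myh3 287.5 and 662. Of 10 markers of other cell types, Adipoq and Snap25 had 0 counts in every library and Ptprc, Epcam and Sox10 at most 8. Tubb3 (22.8 to 151 CPM) made up most of the summed level of the 10, which was 139.7 to 152 CPM in control and 126 to 145 in labelled KO on day 0, 76.6 to 85.8 and 109 to 149.9 on day 1, 59.4 to 85.2 and 83.1 to 99.8 on day 3, and 42.2 to 45.1 and 25.3 to 26.3 on day 6. The part of these differences, and of those in the muscle markers, in the results below was not tested. Replicate 2 of the day 1 labelled KO group stood apart from its group, with a chi-square of 61.1 to 61.4 per degree of freedom against both partners, where other replicate pairs gave 3.10 to 27.4. In bulk RNA, fewer cells expressing a gene and less RNA per cell cannot be told apart.

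In the libraries labelled KO, the 10 genes together gave 49 counts in 12 libraries, against 12357 counts in 11 control libraries. Scaled for library size, that is 0.374% of the control level (exact 95% interval 0.276 to 0.494%; this and the other intervals and floors cover counting error only). Of the 120 gene-by-library entries in labelled KO, 92 were 0, 28 were above 0, 9 were above 1, and the largest was 9. The smallest count in any control library was 24. All 10 genes had every labelled KO library below every control library on all 4 days. On each day taken alone, this held among all 14187 tested genes for 26.6% on day 0, 22.7% on day 1, 27.2% on day 3 and 25.2% on day 6. The share on all 4 days together is not given here. Nothing is read from this comparison because it chose the genes.

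**Figure D1:**
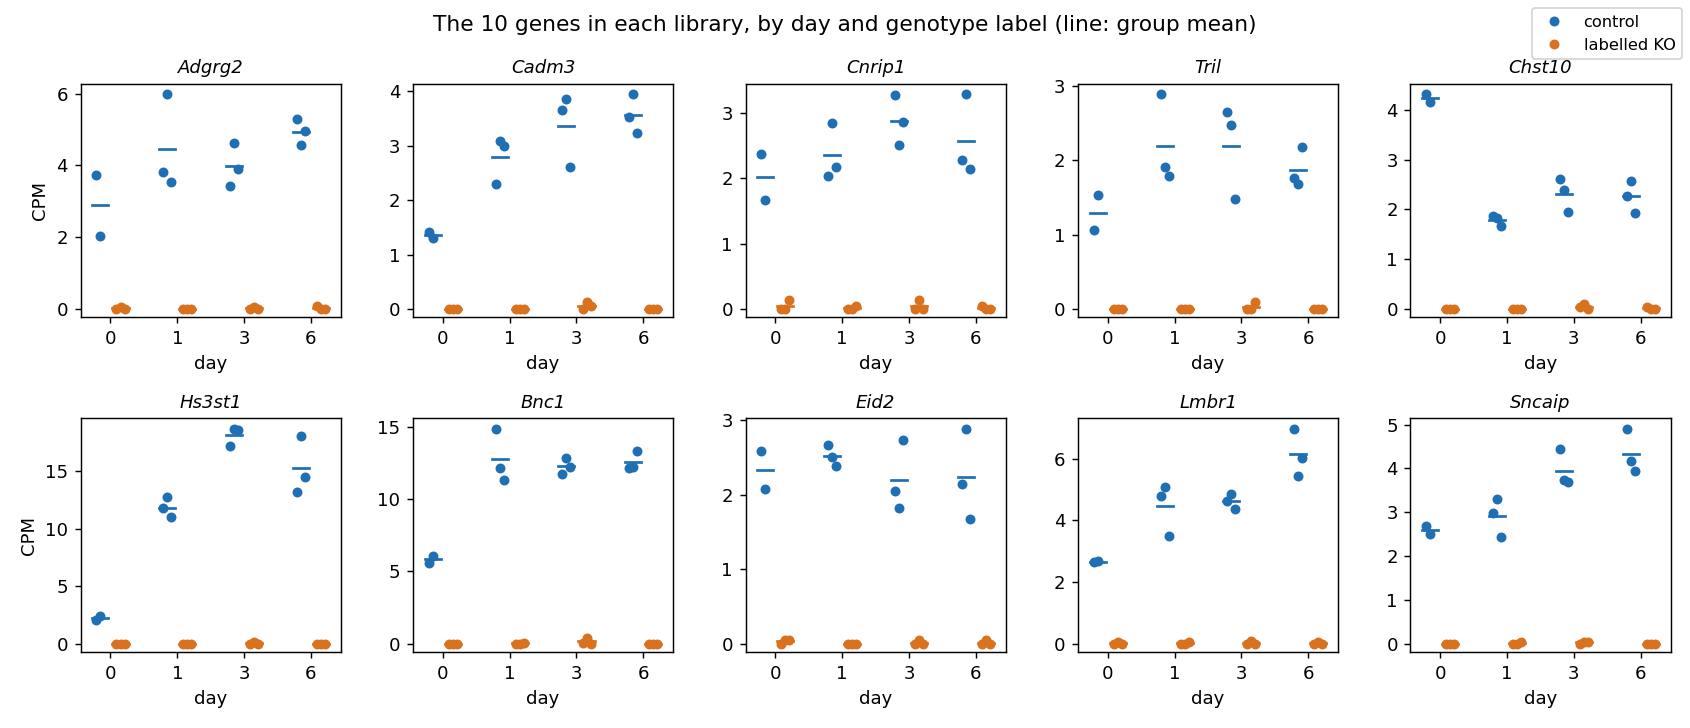
Level of each of the 10 genes in every library: the x axis is the day, the y axis CPM on a linear scale that differs between panels, each point is 1 library (blue control, orange labelled KO) and each line a group mean. Every orange point sits near 0, at or below 0.402 CPM, while the blue points run from 1.06 CPM (Tril, day 0) to 18.7 CPM (Hs3st1, day 3).

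The residual counts were not spread evenly over the libraries labelled KO. Replicate 2 of day 3 held 26 of the 49, with 9 of the 10 genes above 0 and a sum that was 2.08% of the control mean of that day. The other 11 libraries held 0 to 4 counts each (median 2, total 23), and 4 of them held 0. Without that replicate the summed level in labelled KO was 0.191% of control (0.121 to 0.287%), below the 0.374% found with all 12. In that library Bnc1 had 9 counts and Hs3st1 4, while Tril had 0. The day 1 library that stood apart held 0 counts of the 10 genes. For 13 other genes of the same pattern, most of them named below, the day 3 replicate 2 library held 37 counts, and the other 11 held 11 to 28 (median 22).

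**Figure D2:**
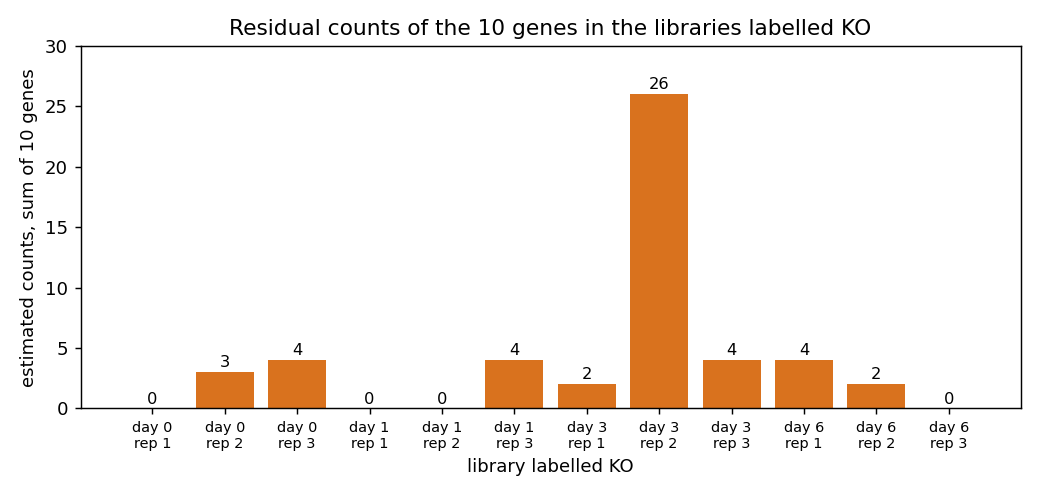
Summed estimated counts of the 10 genes (y axis) in each of the 12 libraries labelled KO (x axis, by day and replicate); each bar is 1 library and its number is the sum. Day 3 replicate 2 stands at 26 and the other bars at 0 to 4.

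The genes differed in how much control RNA there was to lose. By TPM, which compares genes per transcript length, the median over the 11 control libraries was highest for Hs3st1 at 21.4 (2.70 to 29.8), followed by Bnc1 at 4.55 (1.95 to 5.64), Lmbr1 at 4.24 (1.76 to 6.09), Eid2 at 3.59 (2.84 to 4.28) and Cnrip1 at 3.04 (1.84 to 4.40). Sncaip followed at 1.93 (1.12 to 2.69), then Adgrg2 at 1.54 (0.68 to 2.29), Chst10 at 1.38 (0.93 to 2.30), Cadm3 at 1.34 (0.48 to 1.75) and Tril at 0.58 (0.32 to 0.95). The ranges of neighbours in this order overlapped, while those of Tril and Hs3st1 did not. Lmbr1 is a special case, because its TPM per estimated count varied 4.72-fold between control libraries, against at most 1.46-fold for the other 9 genes, and 1 count of it was given 0.68 TPM in day 0 replicate 2 of labelled KO.

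Adgrg2 is an adhesion G protein-coupled receptor best known from the epididymis, and its gene spans chrX:160390318-160498076 on the plus strand. Control libraries gave 3.74 and 2.04 CPM on day 0, 3.82, 5.98 and 3.55 on day 1, 3.44, 4.64 and 3.90 on day 3, and 5.29, 4.57 and 4.95 on day 6. In labelled KO it had 1 count in day 0 replicate 2, 1 in day 3 replicate 2, 2 in day 6 replicate 1, and 0 in the other 9 libraries. The 2 control libraries of day 0 lay far apart for this gene, and every control library was above every labelled KO library. The ratio of control to labelled KO was 189 on day 0 (33.4 to 7530), at least 101 on day 1, where labelled KO had 0 counts and the floor of 3 counts over the group was used, 267 (47.5 to 10600) on day 3 and 170 (46.7 to 1410) on day 6.

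Cadm3 is an immunoglobulin-family adhesion molecule of nerve cells, at chr1:173331892-173368139 on the minus strand. Control libraries gave 1.41 and 1.30 CPM on day 0, 2.29, 3.10 and 2.99 on day 1, 3.66, 3.86 and 2.60 on day 3, and 3.52, 3.95 and 3.23 on day 6. Labelled KO had 3 counts of it in day 3 replicate 2, 1 in day 3 replicate 3, and 0 in the other 10. Its labelled KO counts thus came from day 3 alone. It was at least 29.3-fold lower than control on day 0, at least 63.7-fold on day 1 and at least 81.7-fold on day 6, and the ratio on day 3 was 56.3 (21.7 to 208), or 150.0 (26.6 to 5940) without day 3 replicate 2.

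Cnrip1 encodes a small protein that binds the tail of the cannabinoid receptor Cnr1, and lies at chr11:17051859-17079372 on the plus strand. Control libraries gave 2.38 and 1.67 CPM on day 0, 2.04, 2.84 and 2.18 on day 1, 3.27, 2.51 and 2.86 on day 3, and 2.28, 3.28 and 2.14 on day 6. In labelled KO it had 3 counts in day 0 replicate 3, 3 in day 3 replicate 2, 1 each in day 1 replicate 3 and day 6 replicate 1, and 0 in the other 8. Its residual level was 1.19% of control (0.512 to 2.36%), where the other 9 genes stood at 0.116 to 0.640%, and without day 3 replicate 2 it was 0.812% (0.263 to 1.91%). The Plek gene overlaps Cnrip1 on the opposite strand, and since use of strand is not given in the sources used here, reads from the overlap cannot be told apart. The control-to-KO ratio was 44.0 (14.6 to 217) on day 0, 161 (28.5 to 6400) on day 1, 64.1 (21.6 to 313) on day 3 (at least 42.6 without day 3 replicate 2, which held all 3 counts) and 176 (31.2 to 6990) on day 6.

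Tril, a membrane protein with leucine-rich repeats that associates with the Toll-like receptor Tlr4, lies in 1 exon at chr6:53815468-53820825 on the minus strand. Control libraries gave 1.06 and 1.53 CPM on day 0, 2.89, 1.91 and 1.79 on day 1, 2.66, 2.47 and 1.48 on day 3, and 1.76, 1.69 and 2.18 on day 6. In labelled KO its only 2 counts were in day 3 replicate 3. It had the lowest control level of the 10 by TPM. The gap was at least 27.9-fold on day 0, at least 50.1-fold on day 1 and at least 43.2-fold on day 6, and the ratio on day 3 was 73.4 (20.0 to 612), or 48.8 (13.3 to 407) without replicate 2.

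The 2 sulfotransferases changed in opposite directions over time in control cells. Chst10 makes the HNK-1 sulfated sugar epitope and lies at chr1:38863867-38898177 on the minus strand. Control libraries gave 4.31 and 4.17 CPM on day 0, 1.87, 1.82 and 1.67 on day 1, 2.61, 2.38 and 1.95 on day 3, and 2.28, 2.57 and 1.93 on day 6. Both day 0 libraries were above all 9 later ones. In labelled KO it had 1 count in day 3 replicate 1, 2 in day 3 replicate 2, 1 in day 6 replicate 1 and 0 in the other 9. The gap was at least 91.9-fold on day 0 and at least 40.7-fold on day 1, and the ratio was 51.5 (17.3 to 253) on day 3, or 103 (18.2 to 4080) without replicate 2, and 155 (27.5 to 6170) on day 6.

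Hs3st1 adds a sulfate at the 3-O position of glucosamine in heparan sulfate, the modification that creates antithrombin-binding sites, and lies at chr5:39613935-39645592 on the minus strand. Control libraries gave 2.07 and 2.41 CPM on day 0, 11.8, 12.7 and 11.0 on day 1, 17.2, 18.7 and 18.6 on day 3, and 13.2, 18.1 and 14.5 on day 6. All 9 differentiating control libraries were above both day 0 libraries. In labelled KO its 4 counts all came from day 3 replicate 2, and the other 11 libraries had 0, which allows at most 0.117% of control at the upper 95% bound. With all 12 it stood at 0.116% (0.0316 to 0.297%). The gap was at least 48.4-fold on day 0, at least 270-fold on day 1 and at least 350-fold on day 6, with a ratio of 303 (118 to 1120) on day 3, or at least 269-fold without replicate 2.

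Bnc1 and Eid2 act in the nucleus. Bnc1, basonuclin, is a zinc-finger protein of keratinocytes and germ cells, at chr7:81966657-81992299 on the minus strand. Control libraries gave 5.59 and 6.07 CPM on day 0, 14.8, 12.2 and 11.3 on day 1, 11.8, 12.8 and 12.2 on day 3, and 12.2, 12.2 and 13.3 on day 6. Both day 0 libraries were below the other 9. Labelled KO libraries held 9 counts in day 3 replicate 2, 1 each in day 1 replicate 3 and day 3 replicate 1, and 0 in the other 9. Without day 3 replicate 2 its residual level fell from 0.360% of control (0.179 to 0.645%) to 0.0714% (0.00864 to 0.258%). The ratio was 873 (156 to 34500) on day 1 and 81.8 (44.3 to 171) on day 3, or 544 (97.4 to 21500) without day 3 replicate 2, and the gap was at least 126-fold on day 0 and at least 289-fold on day 6.

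Eid2, a small inhibitor of differentiation that interacts with the acetyltransferase EP300 and can repress MyoD-dependent transcription, lies in 1 exon at chr7:28267881-28269168 on the plus strand. Control libraries gave 2.60 and 2.08 CPM on day 0, 2.68, 2.50 and 2.39 on day 1, 2.05, 1.82 and 2.73 on day 3, and 2.15, 2.88 and 1.68 on day 6. The days overlapped throughout. Single counts of Eid2 were seen in labelled KO day 0 replicates 2 and 3, day 3 replicate 2 and day 6 replicate 2, and 0 in the other 8. The ratio was 76.3 (20.6 to 638) on day 0, 147 (26.0 to 5840) on day 3 and 153 (27.1 to 6090) on day 6, and the gap was at least 57.5-fold on day 1.

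Lmbr1 encodes a multi-pass membrane protein, and an intron of the gene holds the distant limb enhancer of Shh. The gene spans chr5:29229802-29378421 on the minus strand. Control libraries gave 2.64 and 2.69 CPM on day 0, 4.80, 5.09 and 3.50 on day 1, 4.62, 4.85 and 4.38 on day 3, and 6.96, 5.46 and 6.04 on day 6. Both day 0 libraries were below the other 9. In labelled KO it had 1 count each in day 0 replicate 2, day 1 replicate 3 and day 6 replicate 2, 2 in day 3 replicate 2 and 0 in the other 8. The ratio was 173 (30.5 to 6900) on day 0, 305 (54.4 to 12100) on day 1, 154 (42.3 to 1280) on day 3 and 424 (75.7 to 16800) on day 6.

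Sncaip encodes synphilin-1, a protein best known from nerve cells, and lies on chromosome 18. Control libraries gave 2.68 and 2.50 CPM on day 0, 2.97, 3.31 and 2.44 on day 1, 4.44, 3.73 and 3.69 on day 3, and 4.90, 4.17 and 3.94 on day 6. The days 3 and 6 libraries were all above those of days 0 and 1. Single counts were seen in labelled KO day 1 replicate 3, day 3 replicate 2 and day 3 replicate 3, and 0 in the other 9. The gap was at least 56.2-fold on day 0 and at least 99.5-fold on day 6, and the ratio was 199 (35.3 to 7890) on day 1 and 132 (36.2 to 1090) on day 3. Without day 3 replicate 2 of labelled KO, the day 3 ratio of Sncaip was 175 (31.2 to 6950), and the day 3 gap was at least 59.1-fold for Adgrg2, at least 32.5-fold for Eid2 and at least 68.3-fold for Lmbr1.

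The rule used no difference between days, so the course of the 10 genes in control cells could be tested. It did need each gene to be counted in control on every day. A gene near 0 on any control day was therefore shut out of the 10, but not out of all tested genes. With edgeR's quasi-likelihood test and p adjusted over all 14187 tested genes, 4 of the 10 were higher and 1 lower on day 1 than on day 0, where 27.1% of all tested genes were higher and 27.6% lower. On day 3 the counts were 5 higher and 1 lower (29.2% and 29.0% of all tested genes), and on day 6 they were 6 higher and 1 lower (32.6% and 31.1%). The median log2 fold change of the 10 was 0.68, 0.69 and 0.75 on days 1, 3 and 6, against 0.02, 0.02 and 0.05 over all tested genes. Without control day 0 replicate 2, only 3 of the 10 differed from day 0 on day 1 and 3 on day 3, and day 0 has only 2 control libraries. Over the 5 comparisons of days, 19 calls were made for the 10 genes, and 9 of them kept their direction and their adjusted p under 0.05 in every alternative processing that tested them.

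Among the genes that rose, Hs3st1 did so by 2.40 on the log2 scale (SE 0.240, adjusted p = 1.73e-07) on day 1, by 3.02 (SE 0.240, adjusted p = 8.5e-09) on day 3 and by 2.77 (SE 0.240, adjusted p = 1.84e-08) on day 6. Its folds over day 0 were 5.29, 8.12 and 6.81. From day 1 to day 3 it rose by a further 0.62 (SE 0.174, adjusted p = 0.0178), a call lost when control day 1 replicate 1 or 3 or control day 3 replicate 2 or 3 was left out, with adjusted p between 8.36e-05 and 0.218 over all alternatives. Bnc1 rose by 1.13 (SE 0.242, adjusted p = 0.000565) by day 1 and stood 1.07 (adjusted p = 0.000853) and 1.11 (adjusted p = 0.000536) above day 0 on days 3 and 6. Cadm3 rose by 1.04 (SE 0.324, adjusted p = 0.0113) by day 1, a call lost without control day 0 replicate 2 (adjusted p at most 0.0771 over the alternatives), and by 1.31 (adjusted p = 0.00208) and 1.40 (adjusted p = 0.0011) by days 3 and 6.

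Chst10 was the gene that fell. It fell by 1.24 on the log2 scale (SE 0.286, adjusted p = 0.00106) by day 1, and stood 2.37-fold below day 0. On day 3 it was lower by a log2 fold change of -0.87 (SE 0.282, adjusted p = 0.0127), a call lost without control day 0 replicate 1 or 2 or control day 3 replicate 3. On day 6 the log2 fold change was -0.91 (SE 0.282, adjusted p = 0.00886), a call lost without control day 0 replicate 1. By group mean CPM, its highest control level was in growth medium, where each of the 6 genes that rose had its lowest, which for Lmbr1 did not hold by mean TPM (4.47 on day 0 against 3.09 on day 1 and 4.03 on day 3).

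Lmbr1 rose on counts by 0.74 (SE 0.272, adjusted p = 0.0237), 0.79 (adjusted p = 0.0156) and 1.21 (adjusted p = 0.000469) on days 1, 3 and 6, but not on the deposited TPM. On log2(TPM + 1) its change was -0.53 on day 1, -0.15 on day 3 and 0.06 on day 6, none of which passed the test. The counts calls on day 1 were also lost without control day 0 replicate 1 or 2 or control day 1 replicate 2, and those on day 3 without control day 0 replicate 1 or 2. Sncaip rose by 0.61 (SE 0.254, adjusted p = 0.0477) by day 3, a call that 6 of 13 alternatives did not keep, and by 0.74 (SE 0.254, adjusted p = 0.0159) by day 6, lost without control day 0 replicate 2. Adgrg2 rose by 0.77 (SE 0.313, adjusted p = 0.0376) by day 6, a call lost without control day 6 replicate 1 and without control day 0 replicate 2, the lower of the 2 day 0 libraries, which left a change of 0.40. Without control day 0 replicate 1, the higher of them, the Adgrg2 changes were 1.17 (adjusted p = 0.026), 1.01 (adjusted p = 0.0499) and 1.32 (adjusted p = 0.011) on days 1, 3 and 6, against 0.62, 0.46 and 0.77 with both, so its size rests on which of the 2 libraries is used.

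No difference of Cnrip1, Tril or Eid2 from day 0 passed edgeR's test in the model of all groups. Tril had log2 fold changes of 0.77 (adjusted p = 0.108), 0.77 (adjusted p = 0.102) and 0.54 (adjusted p = 0.241), Cnrip1 of 0.22, 0.51 and 0.34, and Eid2 of 0.11, -0.09 and -0.07 on days 1, 3 and 6. The calls of Tril and Cnrip1 depended on the fit. With only the groups compared, Tril passed on day 1 (adjusted p = 0.0416) and day 3 (adjusted p = 0.0354), and without control day 3 replicate 3 it passed on day 3. With limma on log2(TPM + 1), Tril passed on days 1, 3 and 6 (adjusted p = 0.0152, 0.0111 and 0.0448) and Cnrip1 on days 3 and 6 (adjusted p = 0.00229 and 0.0233), and on log2(TPM + 0.1) Tril passed on days 1 and 3. Adgrg2 also passed on days 1 and 3 on both TPM scales. Between day 1 and day 3, 1 gene (Hs3st1) was higher and 0 lower (11.0% and 8.68% of all tested genes). Between day 3 and day 6 edgeR called 0 of the 10, 0 had an unadjusted p under 0.05, and DESeq2 and limma called 0 as well (4.87% of all tested genes were higher and 4.92% lower).

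**Figure D3:**
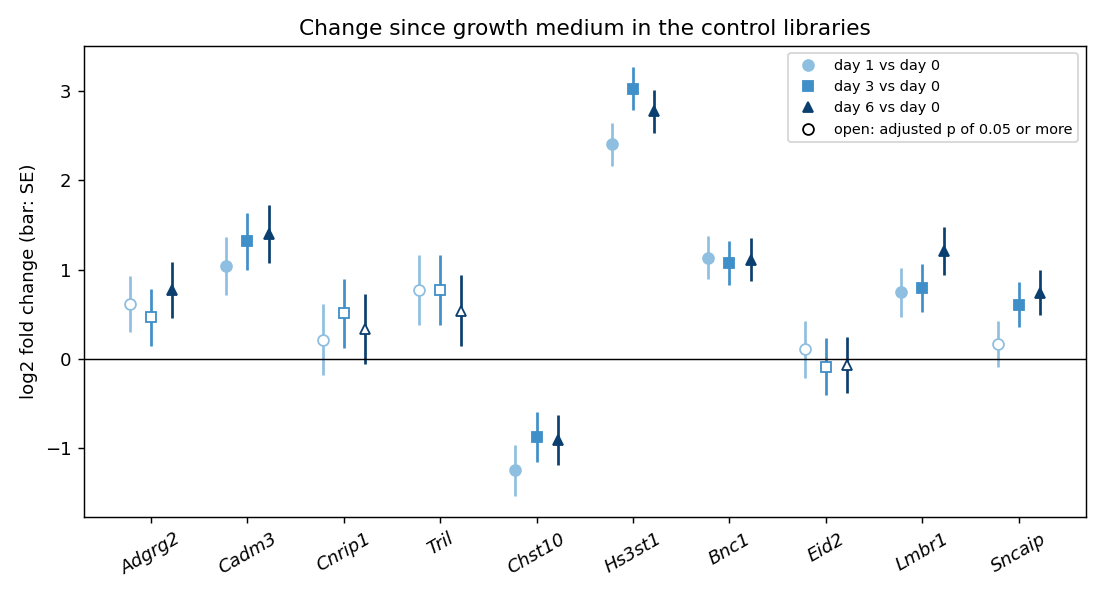
Change of each of the 10 genes in control libraries since growth medium: the x axis lists the genes, the y axis is the log2 fold change against day 0 (edgeR), bars are its standard error, and open symbols have an adjusted p of 0.05 or more. Hs3st1 stands at 2.40 to 3.02, Chst10 below 0 at -1.24 to -0.87, and Eid2 at -0.09 to 0.11.

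As a description over the 11 control libraries, which share days, the levels of the genes moved with each other to different degrees. On log2(CPM + 0.1), Hs3st1 and Bnc1 had a Pearson r of 0.94 (Spearman rho 0.591), and Hs3st1 and Cadm3 an r of 0.924 (rho 0.755). Chst10 had an r of -0.882 (rho -0.445) with Bnc1, -0.79 (rho -0.0455) with Hs3st1 and -0.661 (rho -0.0273) with Cadm3, so by rank it did not run opposite to Hs3st1 or Cadm3. Eid2 followed none of the others closely, with r from -0.384 (Tril, rho -0.427) to 0.316 (Cnrip1, rho 0.336).

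The 10 genes lay on 7 chromosomes, with pairs on chromosomes 1, 5 and 7, and the nearest pair, Hs3st1 and Lmbr1, had starts 10.4 Mb apart. To look at their surroundings, the nearest tested gene on each side of each was taken, 20 genes with starts 9.82 to 2010 kb away. Distances to neighbours, here and below, are between starts, taken as the lower coordinate of each gene span. They are not gaps between genes: Plek overlaps Cnrip1 and Aim2 overlaps Cadm3. None of the 20 had at most 10 counts in every labelled KO library and at least 20 in every control library, limits that all 10 genes meet. Some could not have met them, because control itself fell under 20 counts, and for these the limits decide nothing. Zfp474 had 2 to 19 counts in control, Rnf32 as few as 11, and Aim2 at most 13 in any library. On day 0 the control means of Aff3, Gm20744 and Tm6sf1 were 0.133, 0.091 and 0 CPM. On day 0, 0 were higher and 6 lower in labelled KO (7.36% and 10.1% of all tested genes), on day 1 2 and 6 (22.9% and 19.2%), on day 3 5 and 8 (24.0% and 19.2%), and on day 6 4 and 8 (22.0% and 20.8%). Leaving out labelled KO day 0 replicate 3 or control day 0 replicate 1 left 3 calls on day 0, and leaving out control day 3 replicate 3 left 8 on day 3.

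Lower on all 4 days were 5 of the 20 neighbours and higher on all 4 days 0, where 5.54% of all tested genes were lower and 3.31% higher on all 4. Plek (pleckstrin) overlaps Cnrip1 on the opposite strand, with starts 80.7 kb apart. Its log2 fold changes were -1.17, -1.51, -1.84 and -1.62 on days 0, 1, 3 and 6 (adjusted p at most 0.000122). Chn2, a chimaerin that acts on the GTPase Rac, lies 224 kb from Tril and changed by -0.83, -0.73, -0.67 and -1.35 (adjusted p at most 0.000807). The phosphatase gene Dusp23, 701 kb from Cadm3, changed by -1.88, -2.73, -2.26 and -2.05 (adjusted p at most 0.00506), with the day 0 call lost without control day 0 replicate 2. These 3 genes kept counts in labelled KO: Plek had 80 to 285 there, Chn2 77 to 135 and Dusp23 3 to 21.

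The other two such neighbours were thinly counted. Rnf32, 37.1 kb from Lmbr1, had 1 to 9 counts in labelled KO and 11 to 56 in control, with log2 fold changes of -1.82, -3.10, -2.34 and -1.97, and its day 0 call was lost on both TPM scales and without labelled KO day 0 replicate 3 or control day 0 replicate 1. Zfp474, 152 kb from Sncaip, had 0 to 2 counts in labelled KO and 2 to 19 in control. Its calls on day 0 and day 1 were lost in several alternatives, and without any one of labelled KO day 0 replicates 1, 2 and 3, control day 0 replicate 1, labelled KO day 1 replicates 1 and 2, or the 3 control libraries of day 1. Eid2b, the paralogue 9.82 kb from Eid2, kept most of its level, with log2 fold changes of -0.26 and -0.11 on days 0 and 6 that did not pass the test, -0.78 (adjusted p = 0.0008) on day 1 and -0.46 (adjusted p = 0.0289) on day 3, the last lost without labelled KO day 3 replicate 3 or control day 3 replicate 3.

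**Figure D4:**
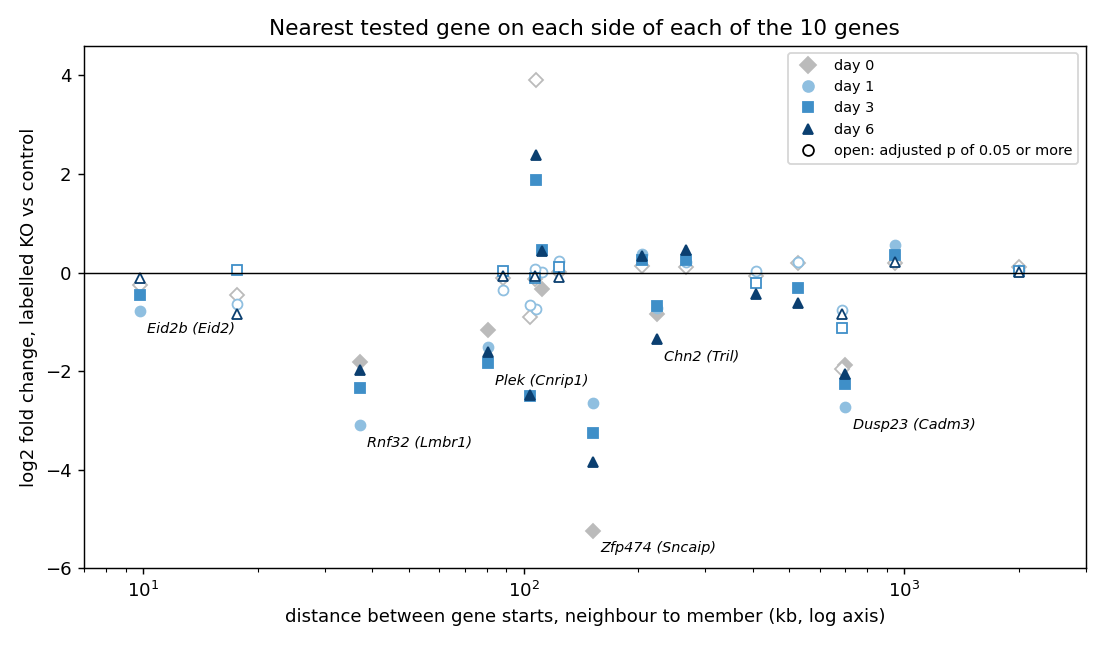
Nearest tested gene on each side of each of the 10: the x axis is the distance between gene starts in kb (log axis), the y axis the log2 fold change of labelled KO against control (edgeR), colours and shapes mark the day, and open symbols have an adjusted p of 0.05 or more. The 5 neighbours lower on all 4 days and Eid2b are named with the gene they lie beside.

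Relatives and partners of the 10 were taken from a list of 35 genes, of which 22 had enough counts to be tested. On day 0, 3 were higher and 4 lower in labelled KO, on day 1 8 and 7, on day 3 5 and 8, and on day 6 3 and 8, to be read against the background shares given for the neighbours. Leaving out labelled KO day 0 replicate 1 or 3, or either control day 0 library, left 3 to 4 calls on day 0. Lower on all 4 days were Hs3st3a1, Adgrg3, Chst14 and Eid1, and none was higher on all 4. Hs3st3a1, another heparan sulfate 3-O-sulfotransferase, fell by 0.65, 1.01, 1.61 and 1.35 on the log2 scale (adjusted p at most 0.00213), and had 110 to 218 counts in labelled KO where Hs3st1 had at most 4. Adgrg3, a relative of Adgrg2, had log2 fold changes of -0.39, -0.58, -1.21 and -0.65. Chst14, a dermatan sulfotransferase, had -0.35, -0.48, -0.31 and -0.62, and Eid1, a relative of Eid2, -0.52, -0.82, -0.51 and -0.50. Day 0 calls of the last 3 were lost on leaving out single libraries: either control day 0 library for each of them, labelled KO replicate 1 for Adgrg3, replicate 3 for Eid1, and replicate 1, 2 or 3 for Chst14, whose day 3 call was lost without labelled KO day 3 replicate 3.

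Of the partners, Cnr1 and Tlr3, and after them Tlr4, were chosen after values were seen. Cnr1 and Tlr3 were higher in labelled KO: Cnr1, the receptor that Cnrip1 binds, by a log2 fold change of 2.76 (adjusted p = 1.06e-05) on day 1, 2.41 (adjusted p = 8.39e-07) on day 3 and 2.52 (adjusted p = 2.95e-07) on day 6. Tlr3, a Toll-like receptor, was higher by 0.92 (adjusted p = 0.00041), 1.64 (adjusted p = 2.57e-07) and 2.36 (adjusted p = 5.58e-10) on those days. Tlr4, the receptor named with Tril above, differed by 0.29 (adjusted p = 0.193), 0.42 (adjusted p = 0.00747), 0.33 (adjusted p = 0.0343) and 0.15 (adjusted p = 0.368) on days 0, 1, 3 and 6. Its day 1 call was lost without labelled KO day 1 replicate 2, the library that stood apart, which left 0.16 (adjusted p = 0.161). That call was also lost in edgeR with only the groups compared (adjusted p = 0.125). With limma it was lost on log2(TPM + 1) (adjusted p = 0.0984) and log2(TPM + 0.1) (adjusted p = 0.107). Its day 3 call was lost without any one of the 3 labelled KO libraries or of control replicates 1 and 2 of that day, and in 6 of the other alternatives, RLE scaling and DESeq2 among them. Day 0 differences of 1.04 for Cnr1 (adjusted p = 0.124) and 0.13 for Tlr3 (adjusted p = 0.764) did not pass the test.

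How rare the pattern is depends on where it is drawn. With at most 5 counts in every labelled KO library and at least 50 in every control library, 3 genes of the table passed, Lmbr1 and Sncaip among them and Ripk3, a kinase of necroptosis, beside them, and 0 genes showed the mirror pattern. With at most 10 and at least 20, thresholds chosen after the counts were seen so that all 10 genes pass, 23 genes passed and 2 showed the mirror (Slfn4 and Tdrp). Among the 13 that joined the 10 were Scara3, Ripk3, Fggy, Rftn1, Igsf10, Igsf5, Eva1a, Nkd2, Klf8, Gm266, Pcdhac2 and Stard8. Scara3, a scavenger receptor, was the most abundant of them by its lowest control library (178 counts there against at most 10 in labelled KO). Of the 10 genes, those nearest the looser limits were Bnc1, with at most 9 counts in labelled KO, and Tril, with at least 24 in control. Among the 13 others, Scara3 and Klf8 reached 10 in labelled KO, and Pcdhac2 and Stard8 had 20 in their lowest control library. Just outside were Unc5c, a netrin receptor (at most 11 and at least 163), Ccdc166 (11 and 64) and Gas7 (5 and 19).

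Promoter windows of 300 bases (250 before and 50 after the start) were matched for 9 of the 10 genes, and for 10422 of the tested genes. The median CpG observed-over-expected ratio was 0.795 in the 9 and 0.759 in the tested genes, and a ratio of at least 0.6 was found in 7 of 9 (77.8%) against 71.1%, a share near the background. The 9 ranged widely. Bnc1 held 50 CpG, more than 98.4% of tested promoters, Eid2 had a ratio of 1.22, higher than 99.3% of them, and Cnrip1 held 8 CpG and had a ratio of 0.357. In the sequences printed above, Bnc1 has 39 CpG and Eid2 23 in the 250 bases upstream.

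Motifs were searched as exact letters on both strands. TGTGGT, the Runx core, was in 3 of the 9 windows (33.3%), against 12.3% of tested promoters: at -114 bases from the start in Cadm3, -38 in Cnrip1 and -220 in Lmbr1. The variant TGCGGT was in 1, Hs3st1, at 39 bases after the start, against 9.43%. An ETS motif, CCGGAAGT, was in 0 of 9, against 8.20%, and the E-box CAGCTG was in Adgrg2 and Tril, against 15.1%. Over all promoters of the reference, tested or not, the shares of TGTGGT and TGCGGT were 16.9% and 6.43%. Of 9 windows matched for the other genes with the members' pattern, 2 held TGTGGT and 2 held TGCGGT (22.2% each). A match is a description of letters in the window and not of binding, and the counts are too small for a share to be read closely.

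**Figure D5:**
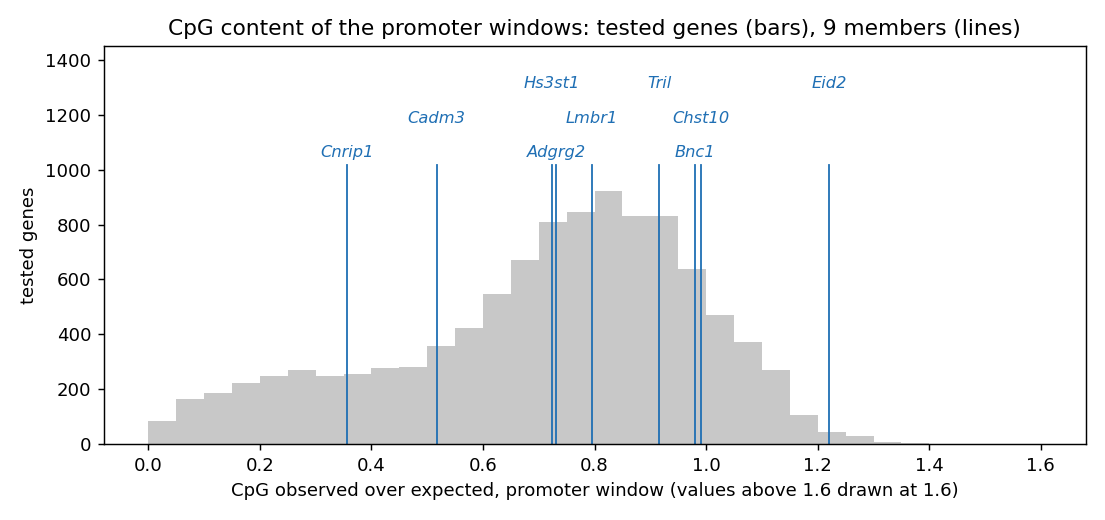
CpG observed-over-expected ratio of promoter windows: bars count the 10422 tested genes with a window (y axis) by ratio (x axis), and each line is 1 of the 9 genes. Cnrip1 lies lowest at 0.357 and Eid2 highest at 1.22, with a median of 0.795 for the 9.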

How the data were processed

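The authors deposited a table of estimated counts per gene symbol, given as whole numbers, and a table of TPM for the same libraries. The submitters' processing notes name Bowtie2, RSEM and mm10; versions, annotation and use of strand are not given in the sources used here. All 23 columns were matched to samples by name. The 10 genes and the lists of neighbours, relatives and markers were chosen with earlier results of these data known.

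In R 4.3.3, edgeR 4.0.16 (quasi-likelihood test, TMM) was fitted on the deposited counts with 1 model of 8 groups over all 23 libraries, on the 14187 genes kept by filterByExpr (minimum count 10, minimum total 15). Benjamini-Hochberg adjustment ran over all of them, with a threshold of 0.05, and the method was tested on simulated data. Folds against 0 counts used a floor of 3 counts over the group, and intervals are exact binomial at 95%. RefSeq positions were matched for 13409 tested genes. Values of neighbours and relatives are given for those past the threshold on the same side on all 4 days and for Eid2b, and for Runx1; of genes with the same pattern the rule named the 10 with the highest lowest control library, and others are named after their values were seen. Some genes that the rule names are not reported here. The alternatives changed the scaling (RLE, or library size only), the filter (none, or 50 counts on average), the tool (DESeq2 1.42.0, or limma 3.58.1 on log2(TPM + 1) and log2(TPM + 0.1)), the libraries fitted (only the groups compared, or each library left out) or added a replicate block.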

Additional observations from a re-analysis of the deposited data

How the results depend on the processing

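Of the single changes of the 10 genes in control, 606 values kept their direction and side of the threshold, 26 lost the call, 18 gained it and 35 changed sign. With a mean count of at least 50, which tests only 3 of the 10 genes (Hs3st1, Bnc1 and Lmbr1), all 3 changed on each of days 1, 3 and 6 and the neighbours differing numbered 3, 5, 7 and 7 on days 0, 1, 3 and 6. With only the groups compared, 4642 genes changed between control days 1 and 3 (2797 otherwise), 3607 differed on day 1 (5981 otherwise) and 11 relatives differed on day 0. On log2(TPM + 1), 3 of the 10 changed between days 1 and 3 and 3 neighbours differed on day 0, and on log2(TPM + 0.1) 0 of the 10 changed between days 1 and 3; the cause was not tested. The pattern held for 6 genes at 10 and 50 counts, 17 at 5 and 20, 0 at 5 and 100 and 23 at 10 and 20.

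Apart from Lmbr1, the changes of sign concerned values that did not pass the test. In Lmbr1, the day 1 and day 3 changes were -0.53 and -0.15 on log2(TPM + 1) and -0.71 and -0.19 on log2(TPM + 0.1). Tril between days 1 and 3 gave -0.0056 with RLE, -0.0046 with library size only, -0.017 without a filter, -0.012 with only the groups compared and -0.0056 with DESeq2. Eid2 gave 0.0544 and 0.0675 on day 3 and 0.0705 and 0.0884 on day 6 on the 2 TPM scales, and 0.0052 on day 6 with library size only.

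Equal replicate numbers did not pair the libraries: mean correlations of same-numbered deviations were -0.149 to 0.119. With the replicate block 7613, 8123 and 8900 genes changed on days 1, 3 and 6, 5, 6 and 7 of the 10 among them, Tril between days 1 and 3 was -0.00093, and among the named neighbours and relatives only the day 1 call of Zfp474 was lost (log2 fold change -2.65, adjusted p = 0.0623).

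Leaving out each library in turn gave 3 to 5, 3 to 5 and 5 to 7 of the 10 genes changed on days 1, 3 and 6, 0 to 1 between days 1 and 3, and 762 to 1579 genes changed between days 3 and 6. Labelled KO against control gave 1265 to 2216 genes, 3 to 5 neighbours and 3 to 5 relatives on day 0, and 8 to 12 neighbours on day 3. From day 0, Cnrip1 then ran from -0.0154 to 0.54 on day 1 and Eid2 from -0.0423 to 0.32, -0.28 to 0.12 and -0.29 to 0.17 on days 1, 3 and 6. From day 1 to day 3, Adgrg2 ran from -0.30 to 0.11, Tril from -0.16 to 0.24, Bnc1 from -0.14 to 0.0571 and Lmbr1 from -0.10 to 0.15. From day 3 to day 6, Cadm3 ran from -0.0754 to 0.19, Chst10 from -0.15 to 0.0775 and Eid2 from -0.20 to 0.21.

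Depth limits the folds: ratios that rest on 1 count in labelled KO have intervals spanning orders of magnitude.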
